A study of Mus musculus with 6 samples.

Results

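The genes examined here encode subunits of the NSL complex, their paralogs and the subunits found only in the sister MSL complex. They were chosen by name, with earlier results of these data known. All 10 were found by symbol among the 26898 genes of the deposited table: Kansl1, Kansl1l, Kansl2, Kansl3, Phf20, Phf20l1, Mcrs1, Msl1, Msl2 and Msl3. Expression was measured by RNA sequencing in primary mouse embryonic fibroblasts (MEFs) of strain C57BL/6 at passage 3, with 3 WT samples (replicates 4, 5 and 8) and 3 KO samples (replicates 3, 7 and 10). WT MEFs were Kansl1fl/fl, in which both Kansl1 alleles are flanked by recombination sites. KO MEFs were Kansl1fl/fl/CAG-cre, in which a Cre recombinase that tamoxifen activates is driven by the broadly active CAG promoter. Tamoxifen (1 μM, 48 h) was given to WT and KO cells alike. The sample labels give 10% serum for both groups, whereas the general culture methods name another percentage. The groups therefore shared the floxed alleles and the drug and differed in Cre as well as in Kansl1, and no Cre-positive MEFs with unflanked Kansl1 were analysed here. The samples of a group came from separate embryos as far as the methods state, so p-values measure the spread between these cultures. Values per sample are listed throughout in the order WT 4, 5 and 8, then KO 3, 7 and 10.

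KAT8, also called MOF, is an acetyltransferase for lysines of histone H4, and it works in both complexes. In the MSL complex, MSL1 is the scaffold, MSL2 carries a RING finger and MSL3 a chromodomain, and the complex acetylates histone H4 across gene bodies. In the NSL complex, KANSL1 takes the scaffold position, and the complex acts mainly at promoters of broadly used genes. KANSL1 and MSL1 bind KAT8 through a related domain, so each complex holds its own share of the enzyme. The comparison asks whether the other genes of either complex, above all the paralogs Kansl1l and Phf20l1, were expressed at another level when Kansl1 was deleted.

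Levels are in TPM, the usual transcript unit of RNA sequencing. Because TPM corrects for exon length and has the same sum in each sample, levels of different genes can be compared approximately. The length was that of all annotated exons merged, whichever transcripts were expressed. Reads on exon bases shared with other genes were left out, so the loss differed from gene to gene. Changes were tested with limma on log2(TPM + 1) over the 14799 genes with a group mean of at least 1 TPM, and fold changes are on that scale. Calls used the thresholds that the study set, which were an adjusted p-value below 0.005 together with a log2 change of more than 0.5 up or down. A looser rule, an adjusted p-value under 0.05 with no minimum fold change, is given beside it. Recovered reads assigned to genes numbered 17654338 to 27716119 per sample. All 10 fibroblast markers examined, among them Col1a1 and Vim, were expressed in every sample. Markers of macrophages summed to 43.8 to 51.5 TPM in WT and 91.1 to 178 TPM in KO MEFs, with 2 of 10 called higher, while 2 of the 10 (Ptprc and Aif1) stayed under 1 TPM in every sample. Of 5 endothelial markers 4 stayed under 1 TPM in every sample, and no gene of the endothelial, epithelial, neural or skeletal muscle lists was called. Summed endothelial markers were 1.10 to 1.87 TPM in WT and 2.32 to 3.10 TPM in KO MEFs. Summed epithelial markers were 40.4 to 45.7 and 49.3 to 66.4 TPM, so that both sums were also higher in every KO sample. The endothelial sum was mostly Kdr and the epithelial sum mostly Krt18. Of 5 epithelial markers 3 stayed under 1 TPM in every sample, and only 1 endothelial and 2 epithelial markers were tested.

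Kansl1 was the targeted gene and is described first. In mm10 its position is chromosome 11 from 104333229 to 104468861 (minus strand). Levels were 28.5, 26.7 and 24.4 TPM in the WT samples against 13.7, 15.8 and 14.4 TPM in the KO samples. Every KO sample lay below every WT sample, in the direction that the labels give. KO MEFs held 14.6 ± 1.04 TPM (SD, n = 3), or 55.1% of the 26.6 ± 2.06 TPM (SD, n = 3) in WT MEFs. The log2 fold change was -0.82 (95% interval -1.06 to -0.57, limma adjusted p-value 0.000859). The values cover all exons together and between 686 and 1608 reads per sample. The deleted exon is not given in the sources used here, so the remaining level does not separate transcripts with and without it. In these bulk samples, fewer cells with the transcript and less transcript per cell cannot be told apart.

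Kansl1l, the paralog of Kansl1, differed in the other direction and encodes a protein related to KANSL1 (chromosome 1 from 66719248 to 66817562, minus strand). Levels were 2.96, 3.73 and 3.18 TPM in the WT samples against 4.97, 5.67 and 5.03 TPM in the KO samples. All KO samples were above all WT samples. Mean expression was 3.29 ± 0.396 TPM (SD, n = 3) in WT and 5.22 ± 0.387 TPM (SD, n = 3) in KO MEFs, a 1.59-fold difference. The log2 fold change was 0.54 (95% interval 0.23 to 0.85) and the limma adjusted p-value 0.0179, so Kansl1l rose by the looser rule and missed the p-value threshold of the study. Without WT 8, KO 7 or KO 10 its adjusted p-value was 0.0524, 0.0568 or 0.0585, and without a filter on low values 0.0582, all of which missed the looser rule too. It rests on 160 to 366 reads per sample, the fewest of the 10 genes. Exon bases shared with other genes, mostly on the opposite strand, made up 25.9% of its exon length. Reads on such bases did not enter the table, so the levels of Kansl1l are understated in both groups. The summed macrophage markers above were higher in KO MEFs as well. The KO sample with their largest sum was KO 10, and Kansl1l was highest in KO 7 as deposited and in KO 3 after either of the rescalings described later. Their part in the level of Kansl1l was not tested.

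Promoters of Kansl1, the deleted gene, and of the 2 genes that rose by the looser rule are shown as sequences before annotated start sites. Which start sites these MEFs used was not measured. Each is the 250 bases before the most upstream RefSeq start site (GRCm38.p6), which lies outside the gene boundary given here, written 5′ to 3′ on the strand of the gene. Capitals mark matches, on either strand, to any of 6 motifs that are spelled out after the sequences. The Kansl1 window is chr11:104469444-104469693, the Kansl1l window chr1:66817596-66817845 and the Kansl2 window chr15:98534270-98534519, all on the minus strand.
Kansl1: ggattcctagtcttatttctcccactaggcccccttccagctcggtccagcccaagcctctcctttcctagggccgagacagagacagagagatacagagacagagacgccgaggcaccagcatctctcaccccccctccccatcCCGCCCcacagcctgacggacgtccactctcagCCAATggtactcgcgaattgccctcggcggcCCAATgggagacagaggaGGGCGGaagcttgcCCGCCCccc
Kansl1l: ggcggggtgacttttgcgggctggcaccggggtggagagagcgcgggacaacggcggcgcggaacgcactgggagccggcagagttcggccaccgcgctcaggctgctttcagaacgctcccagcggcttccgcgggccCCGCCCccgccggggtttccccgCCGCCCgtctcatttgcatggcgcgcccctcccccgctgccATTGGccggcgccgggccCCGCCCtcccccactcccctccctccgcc
Kansl2: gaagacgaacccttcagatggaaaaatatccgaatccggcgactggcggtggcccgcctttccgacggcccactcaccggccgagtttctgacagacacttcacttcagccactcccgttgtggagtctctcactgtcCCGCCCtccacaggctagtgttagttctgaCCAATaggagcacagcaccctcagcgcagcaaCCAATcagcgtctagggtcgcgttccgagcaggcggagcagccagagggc
GC content was 63.2% for Kansl1, 76.4% for Kansl1l and 60% for Kansl2, where the median of 32851 promoters was 52.4%. The CCAAT box (spelled CCAAT) was matched 2 times before Kansl1, 1 time before Kansl1l and 2 times before Kansl2, and 33.8% of all promoters hold it. The GC box (spelled GGGCGG) was matched 3, 3 and 1 times in the same order, and 32.7% of all promoters hold it. The TATA box, spelled TATAAA, is held by 12.4% of promoters but by none of these 3 windows. The same was true of an ETS factor motif, spelled CCGGAAG, which 6.91% of promoters hold. A YY1 motif, spelled ATGGCGG, which 2.21% hold, had no match in them either. Nor did an E-box, spelled CACGTG, which 6.02% hold. No motif contains another. Among the other 6 genes with a RefSeq entry, the CCAAT box was matched only before Phf20, and the GC box before all but Kansl3. No binding was measured here, and a match describes letters only. Phf20l1 had no entry.

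A ratio of 2 genes within a sample does not depend on the scaling between samples, so the paralogs were also compared in this way. Kansl1l stood at 10.4%, 13.98% and 13.02% of the Kansl1 level in the WT samples and at 36.2%, 36.0% and 34.9% in the KO samples. The KO values lay close together and far above the WT values. The log2 ratio was higher by 1.53 in KO MEFs, a 2.89-fold difference (two-sided exact permutation test, p = 0.1, the smallest that 3 against 3 samples allow). The ratio combines the lower Kansl1 and the higher Kansl1l. Because Kansl1 was the deleted gene, the ratio would rise with no change in Kansl1l. Its test is therefore no separate support for a higher Kansl1l. In absolute terms Kansl1l increased by 1.93 TPM and Kansl1 decreased by 11.9 TPM, so that the first difference was 16.2% of the second. The 2 transcripts together came to 29.8 ± 2.00 TPM (SD, n = 3) in WT and 19.9 ± 1.42 TPM (SD, n = 3) in KO MEFs. The sum in KO MEFs was thus 66.5% of that in WT MEFs. Exon bases shared with other genes made up 25.9% of the exon length of Kansl1l and 2.01% of that of Kansl1. These percentages and sums are therefore approximate.

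**Figure D1:**
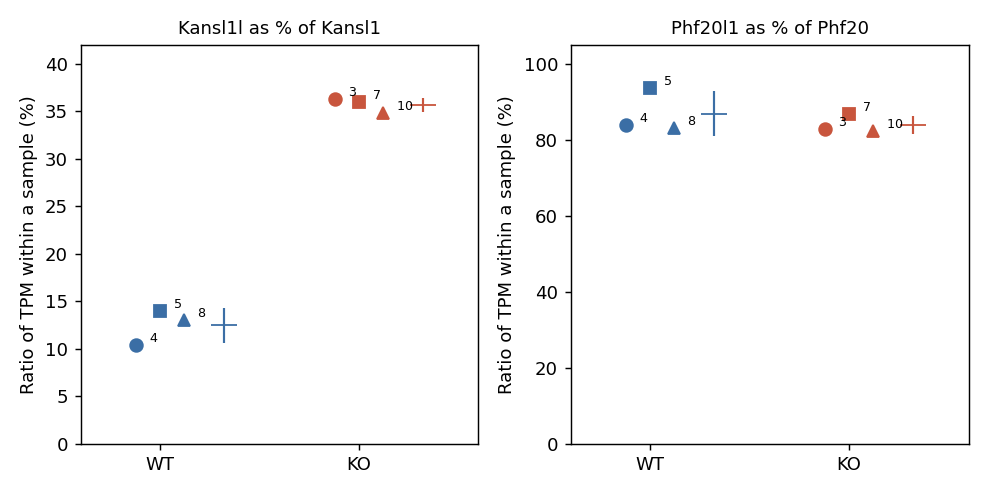
Level of each paralog as a percentage of its partner within each sample (points numbered by replicate, with mean ± SD beside them). Kansl1l stands at 10.4% to 13.98% of Kansl1 in WT and 34.9% to 36.2% in KO MEFs, whereas the Phf20l1 values of the 2 groups overlap.

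Kansl2 and Kansl3 encode subunits that join KANSL1 in the NSL complex. Kansl2 (chromosome 15 from 98517658 to 98534264, minus strand) was the most highly expressed of the 10 genes in both groups. Levels were 71.5, 66.1 and 62.2 TPM in the WT samples against 83.3, 99.0 and 91.2 TPM in the KO samples. The groups did not overlap, and the means of 66.6 ± 4.66 and 91.2 ± 7.82 TPM (SD, n = 3 each) differed 1.37-fold. With a log2 fold change of 0.45 (95% interval 0.21 to 0.68) and a limma adjusted p-value of 0.0117, Kansl2 rose by the looser rule only. Without KO 10 the adjusted p-value was 0.0519 and missed that rule too.

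Kansl3 (chromosome 1 from 36335730 to 36369181, minus strand) had 29.5, 29.4 and 26.0 TPM in the WT samples against 30.04, 35.8 and 35.1 TPM in the KO samples. KO 3 lay just above the highest WT sample, so the groups touched without overlapping. The log2 fold change of 0.24 (95% interval -0.01 to 0.49) had a limma adjusted p-value of 0.138 and passed neither rule.

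Phf20 encodes a reader protein with Tudor domains and a PHD finger, and Phf20l1 is its paralog. Phf20 (chromosome 2 from 156196466 to 156309952, plus strand) had 13.8, 13.5 and 12.2 TPM in the WT samples against 11.8, 14.3 and 13.4 TPM in the KO samples. The lowest and the highest value both came from KO MEFs, and both means were 13.1 TPM. The interval of its log2 fold change ran from -0.26 to 0.26. Phf20l1 (chromosome 15 from 66577560 to 66647976, plus strand) had 11.5, 12.6 and 10.1 TPM in the WT samples against 9.75, 12.4 and 11.003 TPM in the KO samples. These groups overlapped as well, with an interval of -0.34 to 0.25 on the log2 scale. Phf20l1 stood at 83.8%, 93.7% and 83.02% of the Phf20 level in the WT samples and at 82.9%, 86.7% and 82.2% in the KO samples. The log2 ratio differed by -0.05 (two-sided exact permutation test, p = 0.5). The ranges of this ratio overlapped between the groups.

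Mcrs1 (chromosome 15 from 99242817 to 99251961, minus strand) encodes a subunit that the NSL complex shares with the INO80 chromatin remodeller. Levels were 24.6, 23.2 and 21.7 TPM in the WT samples against 20.2, 22.8 and 21.1 TPM in the KO samples. The KO samples ranged lower but overlapped WT, and the log2 fold change of -0.11 (95% interval -0.34 to 0.13) had a limma adjusted p-value of 0.476.

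None of the 3 MSL genes passed either rule. Msl1, the scaffold gene, lies on chromosome 11 from 98795516 to 98807859 on the plus strand. It had 37.3, 40.0 and 36.6 TPM in the WT samples against 37.1, 47.9 and 41.7 TPM in the KO samples. KO 3 lay within the WT range and KO 7 stood above all other samples. The log2 fold change was 0.14 (95% interval -0.12 to 0.40).

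Msl2, whose product carries the RING finger (chromosome 9 from 101074101 to 101104800, plus strand), had 20.8, 18.0 and 15.5 TPM in the WT samples against 16.9, 19.8 and 17.9 TPM in the KO samples. All KO values lay inside the WT range, and the interval of the log2 fold change was -0.28 to 0.30. Msl3, the chromodomain gene on the X chromosome from 168654117 to 168673898 (minus strand), had 45.1, 44.6 and 35.7 TPM in the WT samples against 31.4, 35.0 and 35.4 TPM in the KO samples. WT 8 lay just above the highest KO sample. The log2 fold change of -0.29 (95% interval -0.55 to -0.02) had an unadjusted limma p-value of 0.0379 and an adjusted one of 0.104. Without WT 8 the log2 fold change was -0.39, with an adjusted p-value of 0.0367.

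Msl1, Msl2 and Msl3 together came to 103, 103 and 87.9 TPM in the WT samples against 85.4, 103 and 95.01 TPM in the KO samples. The summed level overlapped between groups and differed by -0.05 on the log2 scale (two-sided exact permutation test, p = 0.6). After median-of-ratios scaling the sign was positive (0.05) and every KO sample lay above every WT sample (two-sided exact permutation test, p = 0.1, the smallest possible). The order of the members changed within this total. Msl3 was above Msl1 on average in WT MEFs, with overlapping ranges, and Msl1 was above Msl3 in KO MEFs, with ranges apart.

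Counted over the 10 genes, 0 were called higher and 1 was called lower at the thresholds of the study, where 1.64% of all tested genes were called higher and 9.03% lower. The 1 called gene was Kansl1, the deleted gene, whose direction the design fixes, and of the 9 other members 0 were called. By the looser rule 3 passed (2 higher and 1 lower), where 27.8% of all tested genes passed (7.14% higher and 20.7% lower). The groups did not overlap for 5 of the 10 genes (3 higher and 2 lower), where this held for 43.2% of all tested genes (13.3% higher and 29.9% lower). After leaving out the 2 most abundant RNAs or median-of-ratios scaling, both described later, 7 of the 10 were apart, where 53.8% and 57.1% of all tested genes were. The median log2 fold change of the 10 genes was 0.004, beside -0.07 over all tested genes. Without Kansl1, 2 of 9 members were higher and 0 lower by the looser rule. No test was made on these shares, which rest on at most 7 genes each.

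Levels were ordered from Kansl2 down to Kansl1l in both groups. In WT MEFs Kansl2 (66.6 TPM) was followed by Msl3 and Msl1. Next came Kansl3, Kansl1 and Mcrs1, whose ranges across samples overlapped from one to the next. Within each WT sample, however, Kansl3 stood above Kansl1 and Kansl1 above Mcrs1. Then came Msl2, followed by Phf20 and Phf20l1, whose ranges overlapped, and last Kansl1l. Phf20 stood above Phf20l1 within every WT and KO sample. In KO MEFs Kansl1 had moved from the fifth to the seventh place, between Msl2 and Phf20. Its range across samples overlapped that of Phf20, but within each KO sample Kansl1 stood above Phf20. Kansl1l remained last, at 5.22 TPM.

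**Figure D2:**
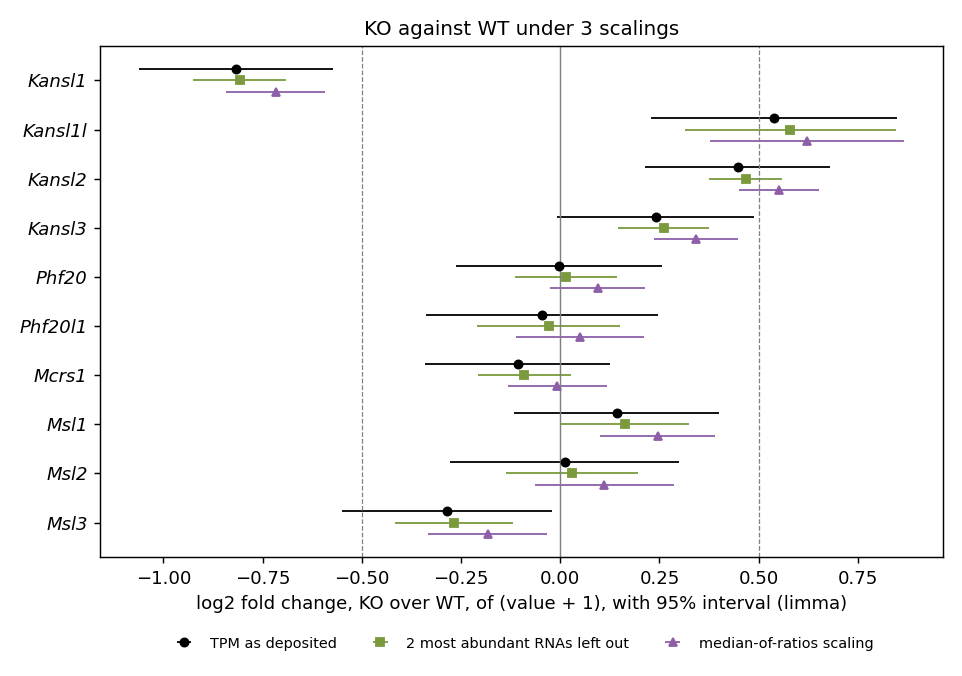
limma log2 fold changes of KO over WT with 95% intervals for the 10 genes, from TPM as deposited (circles), with the 2 most abundant RNAs left out (squares) and after median-of-ratios scaling (triangles), with dashed lines at the fold threshold of 0.5. Kansl1 lies below the lower line under each scaling, and Kansl1l moves from 0.54 to 0.62 and Kansl2 from 0.45 to 0.55 after median-of-ratios scaling.

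Within each group, the samples differed in a way that most members shared. The most abundant RNA, Gm23935, is a 57 bp gene, and it held 15.5%, 18.3% and 24.3% of TPM in the WT samples against 25.6%, 15.5% and 19.9% in the KO samples. In the KO group all 10 genes were lowest in KO 3, where that share was highest, and 9 were highest in KO 7, where it was lowest. In the WT group 9 of the 10 genes were lowest in WT 8, the sample with the highest share. Outside the 10 genes, Kat8, Wdr5, Hcfc1 and Ogt were also lowest in KO 3 and highest in KO 7. All of these but Kat8 were lowest in WT 8 among WT samples. The pattern is thus not particular to the 10 genes, and its share over all genes was not counted. Relative to the mean of its group, the median of the 10 genes stood at 0.920 in KO 3, 0.924 in WT 8 and 1.09 in KO 7. When Gm23935 and the next most abundant RNA were left out and the rest rescaled to the same total, these values were 1.00, 1.00 and 1.01. The median coefficient of variation of the 10 genes went from 7.37% to 4.20% among WT samples and from 8.38% to 2.91% among KO samples.

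**Figure D3:**
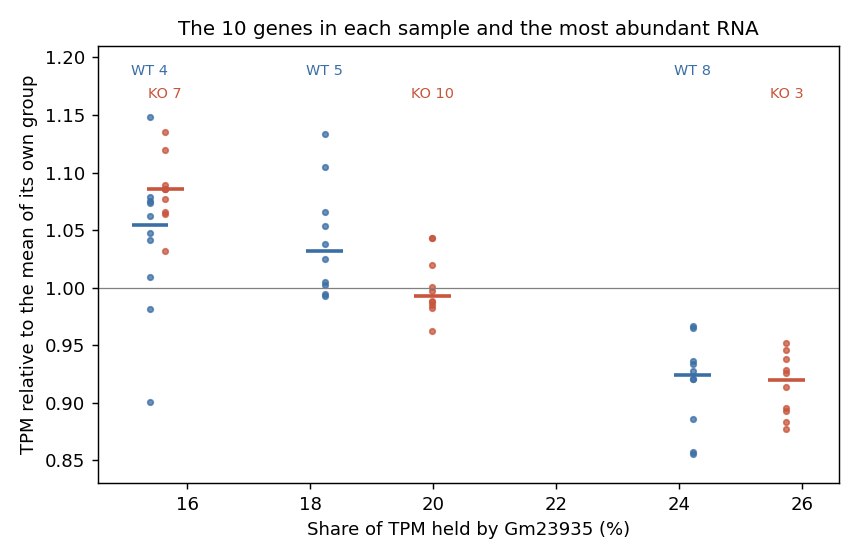
TPM of each of the 10 genes relative to the mean of its own group (points, with a bar at the median) against the percentage of TPM held by Gm23935 in that sample, with WT (blue) and KO (red) set slightly apart along the horizontal axis. The medians are lowest in WT 8 and KO 3, the samples with the largest shares.

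On this rescaled table Kansl2 had 87.3, 84.3 and 87.3 TPM in the WT samples against 119, 121 and 119 TPM in the KO samples, with a log2 fold change of 0.47 (limma adjusted p-value 0.000396). Kansl2 now passed the p-value threshold of the study but stayed under the fold threshold. Kansl1l had a log2 fold change of 0.58 (limma adjusted p-value 0.00734) and Kansl3 one of 0.26 (0.00615). Msl3 had -0.27 (0.0154), so that 3 members were higher and 2 lower by the looser rule, where 13% and 26.5% of all tested genes were. Of the genes that overlapped as deposited, Mcrs1 then had all KO samples below all WT samples (adjusted p-value 0.185), and Msl1 had all KO samples above them (0.101). Kansl1 kept its fall, with a log2 fold change of -0.81. Median-of-ratios scaling shifted the median over all genes by 0.09 (log2). After it, Kansl1l (0.62, limma adjusted p-value 0.00397) and Kansl2 (0.55, 0.000398) passed both thresholds of the study, as they did with voom on the recovered reads (0.76 and 0.56). Kansl3 (0.34, 0.00158) and Msl1 (0.25, 0.0184) were then higher by the looser rule, and Msl3 (-0.18, 0.0535) was not lower by it, though with voom it was (-0.19, 0.0493), where 20.3% of all tested genes were higher and 23.2% lower after the scaling. The signs for Phf20 and Phf20l1 were positive after this scaling, at 0.09 and 0.05, and Phf20 then had all KO samples above all WT samples (adjusted p-value 0.168).

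Of the other NSL subunits, Kat8 encodes the acetyltransferase itself. Kat8 had 10.1, 13.1 and 12.7 TPM in the WT samples against 6.47, 9.10 and 8.56 TPM in the KO samples. The groups did not overlap, and Kat8 was lower by the looser rule only (log2 fold change -0.52, limma adjusted p-value 0.0312). Without WT 5, WT 8, KO 3 or KO 10 the adjusted p-value was 0.103, 0.0902, 0.0774 or 0.0553, and without a filter on low values 0.0856, all of which missed that rule. Wdr5, which encodes a WD40 adaptor shared with methyltransferase complexes, Hcfc1, which encodes a transcription cofactor, and Ogt, which encodes the O-GlcNAc transferase, had log2 fold changes of -0.05, -0.22 and 0.22 and passed neither rule on TPM as deposited. Ogt was higher by the looser rule after median-of-ratios scaling (0.32, limma adjusted p-value 0.0055), with voom (0.33, 0.00208), without the 2 most abundant RNAs (0.24, 0.0296) and without KO 3 (0.33, 0.0394). Hcfc1 was lower by it without the 2 most abundant RNAs (adjusted p-value 0.0286). The sign for Wdr5 was positive (0.05) after median-of-ratios scaling.

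The INO80 complex, whose gene list was written with earlier results of these data known, shares MCRS1 with the NSL complex. Of its 14 other genes examined, 0 were called higher and 0 lower at the thresholds of the study, where limma called 10.7% of all tested genes. By the looser rule 2 were lower and 0 were higher, where 20.7% and 7.14% of all tested genes were. These counts depended on the processing. After median-of-ratios scaling and with voom 5 were lower and 2 higher (Ino80 and Ino80d), and without the 2 most abundant RNAs 6 were lower and 1 higher (Ino80d). The share lower was then 35.7% beside 23.2% of all tested genes after median-of-ratios scaling and 24.3% with voom. Without the 2 RNAs it was 42.9% beside 26.5%. The share higher was 14.3% beside 20.3% after median-of-ratios scaling and 21.7% with voom, and 7.14% beside 13% without the 2 RNAs. With a 10 TPM filter, 4 of the 9 genes tested were lower (44.4% beside 20.7% of all tested genes) and 0 higher (beside 9.63%). Actl6a, which encodes an actin-related protein, had a mean of 30.2 TPM in WT and 20.8 TPM in KO MEFs (log2 fold change -0.52, limma adjusted p-value 0.0076). Actl6a was called lower at the thresholds of the study with a 10 TPM filter (-0.52, 0.00121) and without the 2 most abundant RNAs (-0.51, 0.000887). Ruvbl1, which encodes an AAA+ ATPase, had 80.6 and 59.1 TPM (-0.44, 0.0132), and without KO 10 its adjusted p-value was 0.0619. The median log2 fold change of the 14 genes was -0.24, beside -0.07 over all tested genes.

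Among 4 genes with links to the MSL complex or to the MRG domain of MSL3 (Morf4l1, Morf4l2, Msl3l2 and Dhx9), only Msl3l2 was called. Msl3l2 is a gene named for its likeness to Msl3 and lies on chromosome 10 from 56106917 to 56116880. It had 8.48, 10.2 and 11.1 TPM in the WT samples against 4.305, 5.98 and 4.82 TPM in the KO samples. Every KO sample was below every WT sample, and it fell by 0.86 on the log2 scale (limma adjusted p-value 0.00288). It rests on 67 to 226 reads per sample, and reads that match both this gene and Msl3 could make its values uncertain. The call was lost without WT 5, WT 8, KO 3 or KO 10, with adjusted p-values of 0.0106, 0.0129, 0.0116 and 0.01, and after median-of-ratios scaling (0.00566), without a filter on low values (0.0166) and without a variance trend (0.00523). Morf4l1, Morf4l2 and Dhx9 had log2 fold changes of 0.01, 0.03 and -0.08, and their signs depended on the setting. Morf4l2 was higher by the looser rule after median-of-ratios scaling and with voom (0.14 in both, limma adjusted p-values 0.0333 and 0.0356).

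The genes whose pattern over the 6 samples was nearest to that of Kansl1 were sought among the 14799 tested genes, by Euclidean distance of log2(TPM + 1) centred on the WT mean. They were Camk1 (distance 0.06), with means of 14.1 TPM in WT and 7.55 TPM in KO MEFs, Pmm2 (distance 0.07), with 19.15 and 10.5 TPM, and Prpf18 (distance 0.08), with 16.55 and 8.81 TPM. The likeness rests mostly on the difference between the groups.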

How the data were processed

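RNA was sequenced from 6 samples of primary MEFs, 3 WT and 3 KO, with a library kit that does not mark strand. The authors aligned reads to mm10 with STAR and used DESeq2, per the methods, while the submitters' processing notes also name Bowtie 0.12.2. The counting program is not given in the sources used here. The authors deposited TPM per sample. The table also holds, as deposited, a log2 ratio and an adjusted p-value per gene from the authors' own comparison, which were left aside.

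Samples were grouped by their titles, whose replicate numbers do not match between groups. Of the gene identifiers, 26876 matched GENCODE M21 (mm10) and 22 did not. In each sample TPM times exon length came in steps of 1 size (100% of values within 0.05 of a whole step), and these steps gave the recovered reads. Of 1247 annotated genes whose exon bases are all shared with other genes, 0 were in the table, and so were 0 of the 460 that share them with the opposite strand only, against 43.3% of the 43557 genes that share none. Reads on shared exon bases, on either strand, therefore did not enter the values.

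limma 3.58.1 in R 4.3.3 was run on log2(TPM + 1) with a variance trend and no covariate, for genes whose mean reached 1 TPM in WT or KO samples. The fit was tested on simulated data. Benjamini-Hochberg adjustment was over all tested genes. Single values were compared by exact permutation (scipy 1.17.1). Alternatives were other pseudocounts, filters, scalings and thresholds, voom on recovered reads, and leaving out each sample. Genes were named by rule: all members, the other NSL subunits, genes of 2 partner lists that passed either rule, and the 3 genes nearest to each called member. Other genes of those lists were named after their values were seen, because their sign or call changed with the processing. Members and lists were chosen with earlier results of these data known. No list was tested as a set.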

Additional observations from a re-analysis of the deposited data

How the results depend on the processing

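Kansl1 was called lower under all 14 alternatives, with log2 fold changes from -0.87 to -0.72 and limma adjusted p-values from 2.78e-06 to 0.00498. The log2 ratio of Kansl1l to Kansl1, which Kansl1 deletion alone raises, was higher in KO MEFs by 1.36 to 1.62 over 8 alternatives. Of these 8, the ratio from recovered reads could only repeat the TPM ratio, because these reads were derived from TPM. Of the 10 members, 3 (2 higher) were called after median-of-ratios scaling, with voom and at an adjusted p-value under 0.05, and 1 (0 higher) under each of the other 11 alternatives, the omission of single samples included. Of all tested genes, 12.9% were called after median-of-ratios scaling and 16.5% with voom, against 10.7% on TPM as deposited. The cause was not tested. Kansl1l lay between 0.48 and 0.76 and Kansl2 between 0.39 and 0.56, and a 10 TPM filter removed Kansl1l.

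Over all genes, 1579 were called (242 higher, 1337 lower). Without a filter there were 341 (55 and 286), under voom 2438 (642 higher), and under the looser rule 4114 (1057 and 3057). Median-of-ratios scaling put 473 genes higher. With 1 sample fewer in the fit, 758 to 1081 genes were called, of which 84 to 252 were higher and 617 to 938 lower. Of the 4 NSL, 14 INO80 and 4 MSL-linked genes outside the 10 members, 1 was called lower, where 9.03% of all tested genes were. That number was 0 without a filter, after median-of-ratios scaling and without a variance trend, and 2 without the 2 most abundant RNAs. Under the looser rule it was 4, where 20.7% of all tested genes were lower, and with 1 sample fewer it was 0 to 1.

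The summed MSL level had a positive sign after median-of-ratios scaling (0.052, exact p = 0.1), and with 1 sample fewer it lay between -0.129 and 0.018. The log2 ratio of Phf20l1 to Phf20 lay between -0.078 and 0.0087. Phf20 was positive after median-of-ratios scaling (0.094), without the 2 most abundant RNAs (0.015) and under voom (0.102), and Phf20l1 after median-of-ratios scaling (0.050) and under voom (0.055). The same 2 settings turned Wdr5 (0.052 and 0.051), Ino80c (0.0012 and 0.0044), Yy1 (0.076 and 0.075) and Dhx9 (0.020 and 0.021) positive. With 1 sample fewer, the log2 fold changes spanned 0 for Phf20 (-0.060 to 0.069), Phf20l1 (-0.125 to 0.032), Msl2 (-0.089 to 0.111), Wdr5 (-0.131 to 0.0088), Yy1 (-0.073 to 0.0047), Dhx9 (-0.134 to 0.0024), Morf4l1 (-0.062 to 0.1001) and Morf4l2 (-0.021 to 0.114).

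No paired analysis was possible because replicate numbers differ between WT and KO. A further pair of alternatives was chosen after seeing the data. These were the summed MSL level without the 2 most abundant RNAs (-0.034) and the Kansl1l to Kansl1 ratio from recovered reads (1.53). The latter equals the TPM ratio by construction, so it is no separate check. Depth was low for Kansl1l (160 to 366 reads per sample) and Msl3l2 (67 to 226).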
